A study of Mus musculus with 2 samples.

Results

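Stromal cells of the anterior eye segment carry a set of transcription factors that mark connective tissue cells in many organs, and 9 of them were examined here: Ebf1, Ebf2, Ebf3, Tcf21, Twist1, Twist2, Prrx1, Osr1 and Osr2. They were taken by symbol from the 32285 genes of the count matrices. The list was chosen by their levels across meshwork, fibroblast, keratocyte and mural cells and by the ratios between the libraries in earlier results of these data, so both are given as a description. Single cells were captured in droplets and their RNA was sequenced, in 1 library of NC-Foxc2-/- mice (Foxc2 flox/flox;Wnt1Cre+), in which the Wnt1 promoter drives Cre in the neural crest lineage, and 1 library of control mice (Foxc2 flox/flox without Cre). Both were anterior segments without iris, pooled from 4 to 6 mice of a mixed strain whose age is labelled 4 weeks, and both carry the floxed Foxc2 alleles. The paper states that the NC-Foxc2-/- mice used here were selected for a moderate ocular phenotype, so they do not cover the range of that genotype. With 1 library per genotype there is no test between genotypes, and every ratio below compares these 2 libraries.

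The libraries held 10872 NC-Foxc2-/- cells with a median of 6517 unique molecular identifiers (UMIs, 1 for each captured transcript) and 10773 control cells with a median of 7663 UMIs, after cells with more than 8% mitochondrial UMIs were left out. 52 barcodes occurred in both libraries. The trabecular meshwork clusters TM-1, TM-2 and TM-3, the uveal meshwork and the fibroblasts carry the study's own names, and keratocyte-like, pericyte-like and smooth muscle-like cells were named here from marker genes. TM-1 and TM-2 were high in a list of trabecular beam markers (Edn3, Gpc3, Pdgfra, Tmeff2 and Fmo2), with 2268 and 2334 UMIs per 1000000 UMIs of the class (CPM) in NC-Foxc2-/- cells and 2062 and 2270 CPM in control cells. TM-3 was high in juxtacanalicular markers (Myoc, Chil1, Chad, Nell2 and Tnmd), with 3120 CPM in NC-Foxc2-/- cells and 3706 CPM in control cells.

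These factors belong to 4 families. EBF proteins are helix-loop-helix factors first known from B cell development, and they are also expressed in fat cell precursors, pericytes and fibroblasts. Tcf21, Twist1 and Twist2 are basic helix-loop-helix (bHLH) factors that pair with widely expressed E proteins and bind the E-box. Tcf21 marks fibroblast precursors of heart, lung and kidney, while the Twist factors act in neural crest and head mesenchyme, and human mutations of TWIST1 and TWIST2 cause craniofacial and eyelid disorders. Prrx1 is a paired-related homeobox factor of limb and head mesenchyme, and Osr1 and Osr2 are zinc finger factors of the odd-skipped family that act in kidney, limb and palate development.

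Positions are those of GENCODE genes on GRCm38, which is mm10 under another name. Ebf1 spans chromosome 11, bases 44617317 to 45008091, on the plus strand, and its longest transcript has 16 exons. Tcf21 is a gene of 2 exons on the minus strand of chromosome 10, bases 22817281 to 22820174. Osr2 lies on the plus strand of chromosome 15, bases 35296098 to 35303305, and overlaps no other annotated gene, nor does Twist1 on chromosome 12. The other members overlap at least 1 further annotated gene each. Because the 3' end is what this method counts, the last 500 bases of the annotated transcripts were compared within each family. The longest identical run was 15 bases, between Ebf1 and Ebf3.

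Promoter sequences, from 250 bases before to 50 bases after a start, were given by RefSeq (GRCm38.p6) for 6 of the 9 members, with 2 starts for Ebf1. Those of Ebf1 and Tcf21 are shown because both genes were higher in NC-Foxc2-/- cells of TM-1. Each is written 5′ to 3′ on the strand of the gene, with the 50 bases from the RefSeq start onward in capitals. Both Ebf1 windows lie inside the GENCODE span of Ebf1, and the Tcf21 window reaches into that of Tcf21. Lower-case bases can therefore be transcribed too. The first Ebf1 window is chr11:44617850-44618149 (plus strand), the second is chr11:44619978-44620277 (plus strand), and the Tcf21 window is chr10:22820094-22820393 (minus strand).
Ebf1 first start: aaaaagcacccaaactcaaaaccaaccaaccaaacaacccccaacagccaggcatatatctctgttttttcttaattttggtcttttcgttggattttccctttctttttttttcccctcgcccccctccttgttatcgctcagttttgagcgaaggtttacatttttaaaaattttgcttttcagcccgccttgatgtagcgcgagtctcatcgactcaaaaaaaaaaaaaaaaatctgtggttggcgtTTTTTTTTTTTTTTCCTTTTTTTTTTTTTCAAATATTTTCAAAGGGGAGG
Ebf1 second start: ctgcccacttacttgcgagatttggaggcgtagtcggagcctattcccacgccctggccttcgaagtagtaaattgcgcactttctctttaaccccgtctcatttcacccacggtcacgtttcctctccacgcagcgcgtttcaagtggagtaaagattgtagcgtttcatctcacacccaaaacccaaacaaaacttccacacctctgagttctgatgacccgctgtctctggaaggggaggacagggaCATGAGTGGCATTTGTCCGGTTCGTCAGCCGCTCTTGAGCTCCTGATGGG
Tcf21: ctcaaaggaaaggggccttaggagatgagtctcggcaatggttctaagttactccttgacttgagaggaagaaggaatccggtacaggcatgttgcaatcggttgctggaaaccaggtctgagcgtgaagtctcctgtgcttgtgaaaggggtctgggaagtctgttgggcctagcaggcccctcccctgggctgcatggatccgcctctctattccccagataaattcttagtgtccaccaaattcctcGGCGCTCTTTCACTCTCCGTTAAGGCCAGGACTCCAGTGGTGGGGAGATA

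The first Ebf1 window is AT-rich, with 36.7% G and C, against a median of 52.7% over all 32851 promoters. The second Ebf1 window has 53.0% G and C and 17 CG dinucleotides, and the Tcf21 window has 53.3% and 8. Searched on both strands, the E-box CANNTG that bHLH factors bind was found in 1 of the 7 member promoters, the second Ebf1 window, with 2 matches, and in 72.3% of all promoters. The homeodomain motif TAATTA occurred in the Prrx1 promoter and in 5.29% of all promoters. The TATA motif TATAAA occurred in the Twist1 promoter and in 13.6% of all promoters. Neither the EBF motif, which is TCCC and GGGA with 2 bases of any kind between them, nor the forkhead motif GTAAACA was among the letters of these 7 windows, which occurred in 0.904% and 3.65% of all promoters. A match is a description of these letters only.

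Foxc2, the forkhead gene targeted in neural crest cells, was counted first as a check of the labels. In TM-3 it had 5.10 CPM in NC-Foxc2-/- cells (38 UMIs) and 27.0 CPM in control cells (169 UMIs), a ratio of 0.189. The ratio lay between 0.189 and 0.222 in all 4 meshwork classes, was 0.0144 in fibroblasts and 0.0188 in pericyte-like cells, and was 0.174 in smooth muscle-like cells. In 2 classes the check did not follow the lineage. Keratocytes are of neural crest origin, and keratocyte-like cells had 9.80 CPM in the NC-Foxc2-/- library and 4.41 CPM in the control library. Endothelial cells are not, and endothelial-like cells had 4.42 CPM in the NC-Foxc2-/- library (8 UMIs) and 24.1 CPM in the control library (56 UMIs), a ratio of 0.184. A UMI at the 3' end need not come from the part of the gene that was deleted.

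Among the 8 stromal classes the EBF genes were highest in pericyte-like cells and fibroblasts. Over both libraries Ebf1 had 643 CPM in pericyte-like cells, 395 CPM in fibroblasts, 77.5 CPM in TM-1, 73.6 CPM in TM-2 and 69.5 CPM in TM-3. The uveal meshwork, smooth muscle-like and keratocyte-like cells followed at 12.6, 10.3 and 7.15 CPM. The step from pericyte-like cells to fibroblasts was 1.63-fold (95% interval 1.55 to 1.71), and it was 1.62-fold in each library alone. The similar levels of the 3 TM classes came from summing 2 unlike libraries. In NC-Foxc2-/- cells Ebf1 had 116 CPM in TM-1, 111 CPM in TM-3 and 83.4 CPM in TM-2, while in control cells TM-2 had 62.0 CPM, TM-1 had 47.8 CPM and TM-3 had 19.97 CPM. Ebf2, which marks fat cell precursors, kept to fewer classes, with 36.4 CPM in fibroblasts and 23.0 CPM in pericyte-like cells, and at most 5.19 CPM elsewhere in the stroma. Ebf3 was low throughout, with 8.398 CPM in fibroblasts and 7.18 CPM in pericyte-like cells, a ratio of 1.17 (0.755 to 1.86). The libraries went opposite ways here, with 0.779 in the NC-Foxc2-/- library (48 UMIs in fibroblasts and 25 in pericyte-like cells) and 3.65 in the control library (30 and 4 UMIs). Outside the stroma, endothelial-like cells had 9.91 CPM of Ebf3.

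Tcf21 had a different place. It was counted in the trabecular beam classes, at 82.1 CPM in TM-2 and 26.8 CPM in TM-1, a 3.06-fold step (2.47 to 3.79). Pericyte-like cells had 5.69 CPM. In fibroblasts, 5 UMIs were counted in the NC-Foxc2-/- library and 0 in the control library, which allows at most 3 UMIs in 3321714.

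Twist1 and Prrx1 were broad. Twist1 had 327 CPM in TM-3, 288 CPM in keratocyte-like cells, 273 CPM in fibroblasts and 179 to 223 CPM in TM-1, TM-2, uveal meshwork and smooth muscle-like cells. In the control library alone fibroblasts were above TM-3, with 374 CPM against 355 CPM. Pericyte-like cells stood apart, with 76.8 CPM of Twist1 in NC-Foxc2-/- mice and 74.2 CPM in control mice. Macrophage-like cells, a class of blood origin, had 76.3 and 68.5 CPM in the same libraries. Twist1 was lower in the further background classes, with 17.1 and 12.9 CPM in endothelial-like and 1.16 and 0 CPM in erythrocyte-like cells. Prrx1 was highest in smooth muscle-like cells, at 392 CPM, followed by 298 CPM in keratocyte-like cells, 271 CPM in pericyte-like cells and 258 CPM in TM-3. Its lowest stromal level, 136 CPM in TM-2, was still above the 64.4 and 63.3 CPM that macrophage-like cells of the NC-Foxc2-/- and control libraries had.

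Twist2, a repressor of mesenchymal differentiation, was highest in 2 of the 8 stromal classes, with 59.4 CPM in keratocyte-like cells and 55.9 CPM in fibroblasts. Their order turned between the libraries, with 61.2 CPM in keratocyte-like cells and 45.1 CPM in fibroblasts of NC-Foxc2-/- mice, but 56.9 and 75.3 CPM in control mice. In the other stromal classes it had at most 8.24 CPM. Outside the 8 classes, an unnamed cluster led by Coch and Hspa1a, with 41.7% doublets, had 66.0 CPM of Twist2 over both libraries. Another, led by Myod1 and Gal, with 18.5% doublets, had 42.7 CPM. Macrophage-like cells had 12.6 CPM of Twist2 in the NC-Foxc2-/- library and 10.4 CPM in the control library, and the lower stromal levels lie within those. Other background classes were lower, with 0 and 0.534 CPM in erythrocyte-like cells and 1.10 and 0 CPM in endothelial-like cells of the NC-Foxc2-/- and control libraries. Osr1 was counted in fibroblasts, TM-2 and TM-1, at 28.5, 27.7 and 21.97 CPM, and at most 2.48 CPM elsewhere in the stroma. Fibroblasts led these classes in the NC-Foxc2-/- library (35.5, 29.2 and 24.2 CPM) and were the lowest of them in the control library (16.0, 25.8 and 20.3 CPM). Osr2 was a fibroblast gene within the stroma, with 149.98 CPM in fibroblasts and 8.24 CPM in TM-3, the next class, an 18.2-fold step (15.01 to 22.2). Over the next class it was 8.64-fold in the NC-Foxc2-/- library, where that was TM-3, and 30.1-fold in the control library, where that was TM-2 (7 UMIs).

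**Figure D1:**
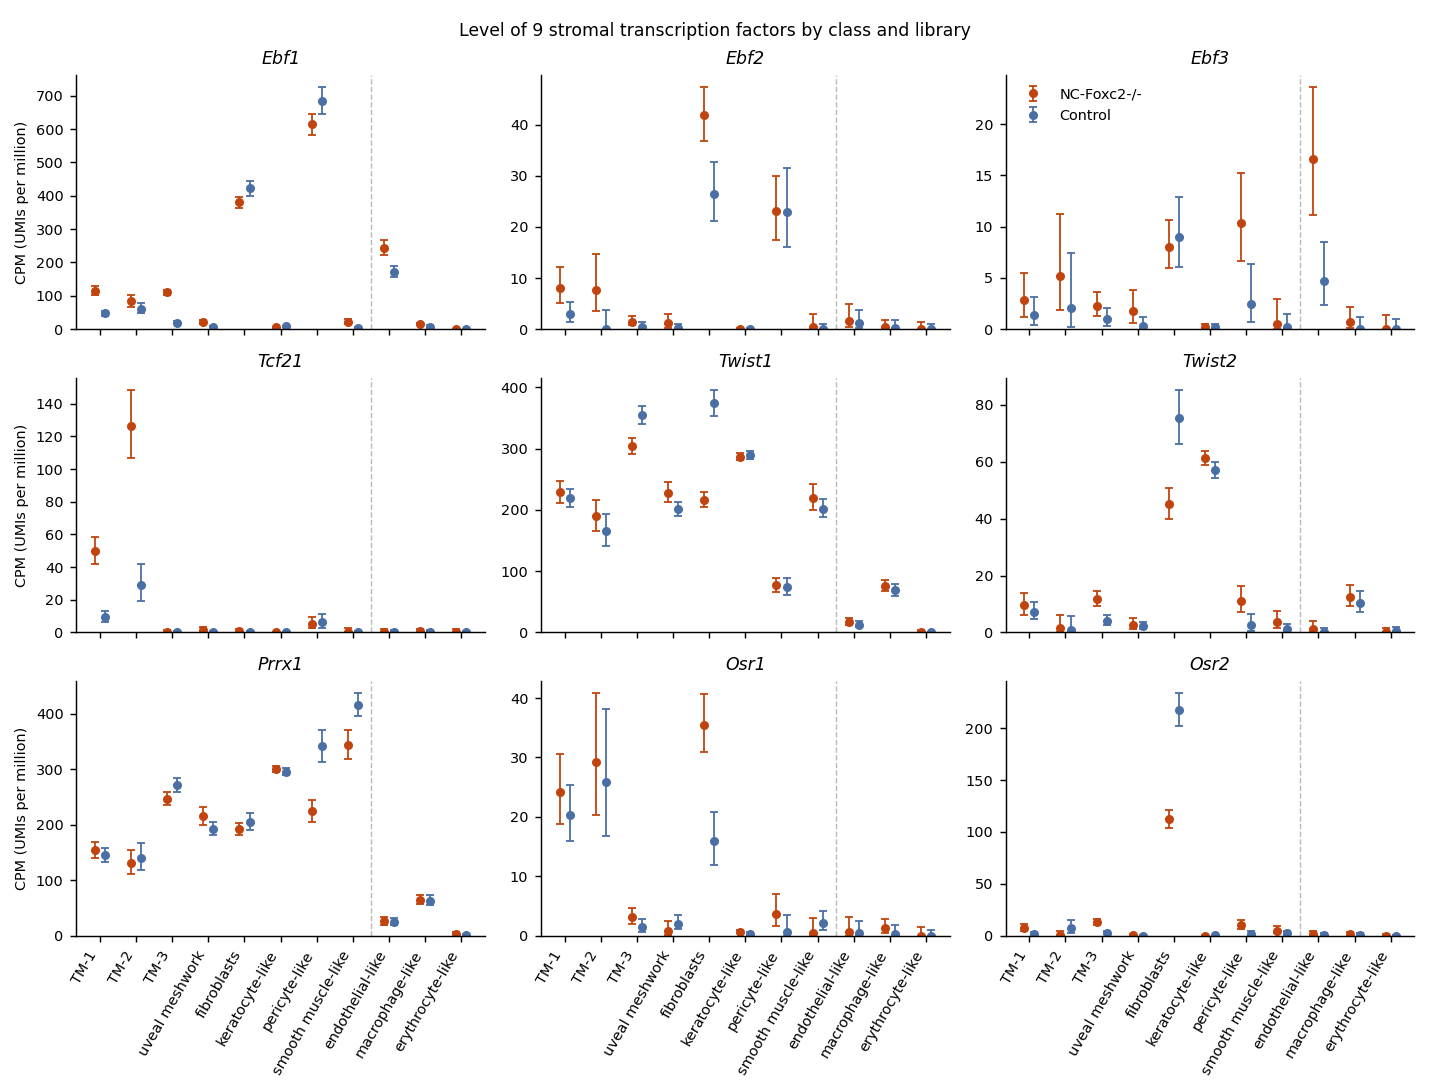
Level of each of the 9 factors in CPM (linear axes that differ between panels) in NC-Foxc2-/- cells (orange) and control cells (blue), with exact Poisson 95% intervals. The dashed line separates the 8 stromal classes from 3 classes given as background. Ebf1 peaked in pericyte-like cells, Tcf21 in TM-2 and Osr2 in fibroblasts in both libraries.

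Between the libraries, a member was called where its CPM ratio of NC-Foxc2-/- over control was at least 2 or at most 0.5 and at least 50 UMIs were counted over both. Of 72 pairs of member and class, 38 had 50 UMIs, 9 were called higher in NC-Foxc2-/- mice and 0 were called lower. No tool could test these ratios, since each genotype is 1 library. In TM-3, 3 of 5 members were called higher, against 3.64% of 10225 genes. In TM-1 it was 2 of 6 (2.24% of 8468 genes), in TM-2 1 of 5 (2.77%), in the uveal meshwork 1 of 3 (2.06%), in fibroblasts 1 of 8 (4.84%) and in smooth muscle-like cells 1 of 3 (1.71%). Of 4 members in keratocyte-like cells and 4 in pericyte-like cells, 0 were called higher (2.34% and 5.94% of genes). Against the 0 members called lower stood 6.09% of all genes in fibroblasts, 3.72% in pericyte-like cells, 2.29% in TM-3, 1.9% in smooth muscle-like cells, 1.88% in TM-2, 1.7% in TM-1, 1.49% in uveal cells and 1.27% in keratocyte-like cells. The list was chosen with these ratios known, and nothing is read from the counts. The lowest called ratio was 2.23, of Osr1 in fibroblasts, the highest ratio that was not called on the upper side was 1.58, of Ebf2 in fibroblasts, and on the lower side the nearest was 0.517, of Osr2 in fibroblasts.

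The median ratio of the members with 50 UMIs was 2.81 in TM-3, where the median over all genes was 1.04. That median is the ratio of Twist2, which lay within the macrophage-like level there, and with the classes weighted to the control mix of clusters it was 1.74. It was 1.25 in TM-1 and 1.15 in TM-2, against 0.985 and 0.995 over all genes. In fibroblasts the members' median was 0.896, against 0.987 over all genes, and in keratocyte-like cells it was 1.00, against 1.00.

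**Figure D2:**
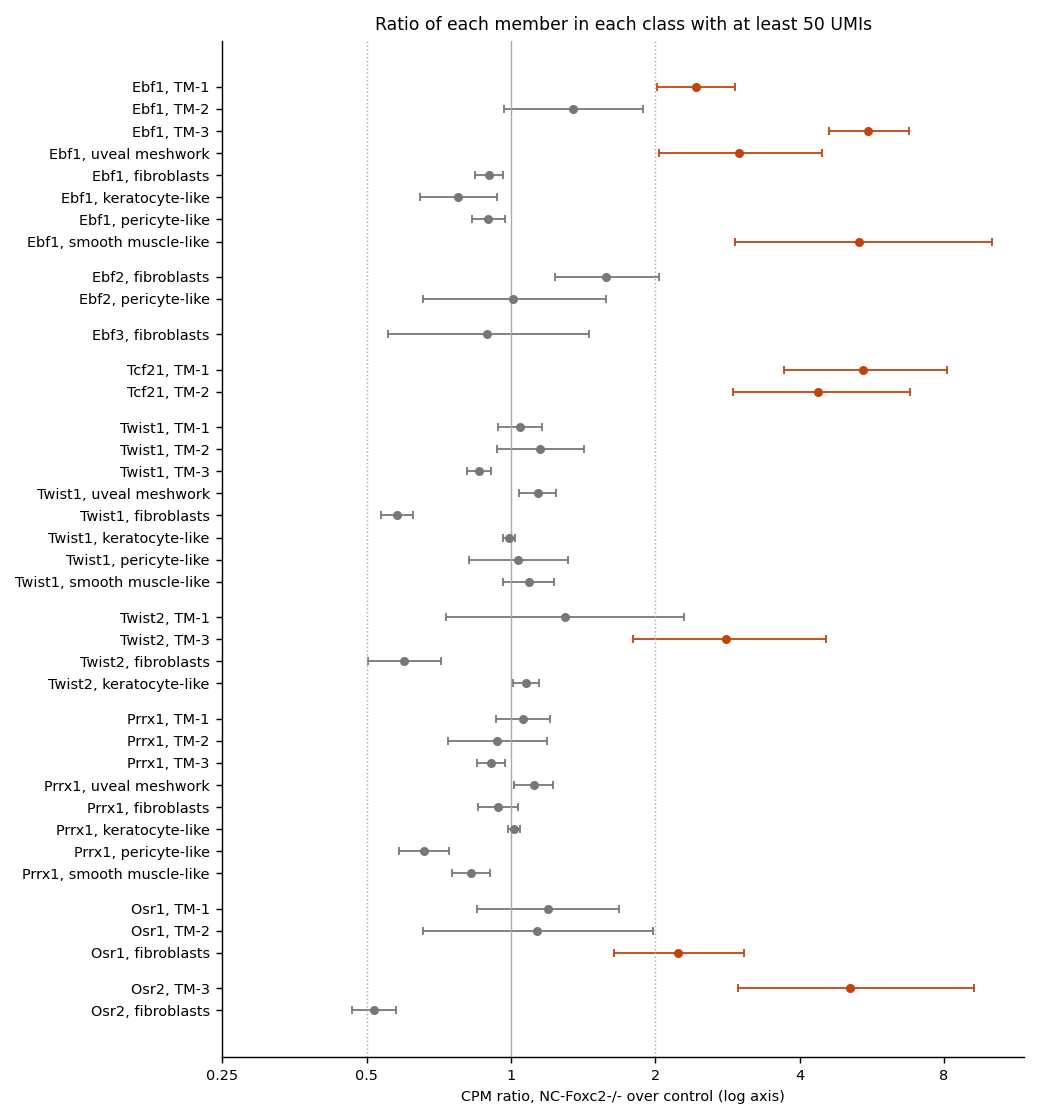
CPM ratio of NC-Foxc2-/- over control on a log axis for the 38 pairs of member and class with at least 50 UMIs, with exact conditional binomial 95% intervals that cover counting error only. Called pairs are orange, the solid line marks a ratio of 1 and the dotted lines mark 0.5 and 2. Ebf1 in TM-3 stood at 5.56 and Osr2 stood at 5.09 in TM-3 but at 0.517 in fibroblasts.

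Ebf1 carried 4 of the 9 calls. In TM-3 it had 111 CPM in NC-Foxc2-/- cells (828 UMIs) and 19.97 CPM in control cells (125 UMIs), a ratio of 5.56 (4.60 to 6.77). In TM-1 it had 116 CPM in NC-Foxc2-/- cells and 47.8 CPM in control cells, a ratio of 2.43 (2.02 to 2.93). Where Ebf1 was highest it hardly moved, with 614 CPM in NC-Foxc2-/- and 685 CPM in control pericyte-like cells (ratio 0.896), and 380.1 CPM in NC-Foxc2-/- and 422 CPM in control fibroblasts (ratio 0.901). The markers of the pericyte-like class differed between the libraries. Pericyte markers summed to 5907 CPM in NC-Foxc2-/- and 7730 CPM in control cells (3 of 7 higher), and smooth muscle markers to 14022 and 9883 CPM (6 of 7 higher). Their part in the Ebf1 ratio was not tested. TM-2 had 83.4 CPM in NC-Foxc2-/- cells and 62.0 CPM in control cells, a ratio of 1.35 whose interval reached from 0.965 to 1.89.

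The uveal meshwork and smooth muscle-like calls of Ebf1 lay near the level of macrophage-like cells. In the uveal meshwork it had 21.7 CPM in NC-Foxc2-/- cells (75 UMIs) and 7.25 CPM in control cells (43 UMIs), a ratio of 3.00. In smooth muscle-like cells it had 22.4 CPM in NC-Foxc2-/- cells, from 43 UMIs in 15 cells, and 4.22 CPM in control cells, from 16 UMIs in 8 cells. Macrophage-like cells, which should lack the gene, had 15.6 CPM of Ebf1 in the NC-Foxc2-/- library and 7.79 CPM in the control library, a ratio of 1.997. Erythrocyte-like cells had less, with 0 CPM in the NC-Foxc2-/- library and 0.267 CPM in the control library. With the uveal meshwork taken from rebuilt clusters its ratio was 1.77, below the limit. In smooth muscle-like cells the ratio was 5.31, and 11.4 without doublets.

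The Ebf1 ratio was larger over the whole of TM-3 than within its parts, and the class was made up differently in the 2 libraries. Clustering of all cells placed 52.2% of NC-Foxc2-/- TM-3 cells and 79.3% of control TM-3 cells in a cluster led by Myoc and Ecrg4 (cluster 4), and 44.4% of NC-Foxc2-/- and 18.7% of control TM-3 cells in a cluster led by Cilp2 and Chad (cluster 9). In cluster 4, Ebf1 had 25.5 CPM in NC-Foxc2-/- cells and 6.65 CPM in control cells (ratio 3.84, 2.61 to 5.77). That control level was below the 7.79 CPM of control macrophage-like cells. In cluster 9, Ebf1 had 248 CPM in NC-Foxc2-/- cells and 96.9 CPM in control cells (ratio 2.56, 2.04 to 3.25). Ebf1 was thus higher in the NC-Foxc2-/- library in both parts, and higher in cluster 9 than in cluster 4 in both libraries. Weighted to the control mix of clusters, an alternative added after the data were seen, the TM-3 ratio was 2.93, and 2.92 with finer clusters. In TM-1 the same weighting gave 2.06, and 1.84 with finer clusters, where the call was lost, as it was with rebuilt clusters in place of the study's names (1.91).

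Marker lists of other cells differed between the TM-3 libraries, some higher and some lower in NC-Foxc2-/- cells. A list of 5 fibroblast markers (Cd34, Clec3b, Mfap5, Pi16 and Tnxb) summed to 551 CPM in NC-Foxc2-/- TM-3 cells and 376 CPM in control TM-3 cells, with 5 of 5 higher in the NC-Foxc2-/- library. The same list had 6844 CPM in NC-Foxc2-/- fibroblasts and 10605 CPM in control fibroblasts. A list of 7 pericyte markers summed to 273 CPM in NC-Foxc2-/- TM-3 cells and 189 CPM in control TM-3 cells, with 7 of 7 higher and none at 0. Most of the sum came from Pdgfrb (161 and 119 CPM) and Rgs5 (38.3 and 27.3 CPM). The largest ratios were those of Kcnj8 (58 UMIs in NC-Foxc2-/- and 8 in control cells) and Abcc9 (45 and 3 UMIs), both subunits of a vascular potassium channel. Abcc9 was also higher in NC-Foxc2-/- fibroblasts (49.4 and 8.73 CPM) but near level in pericyte-like cells (119 and 116 CPM). The list with the highest ratio was that of 8 Schwann cell markers, with 71.3 CPM in NC-Foxc2-/- and 22.7 CPM in control TM-3 cells (8 of 8 higher), and 7 smooth muscle markers had 1072 and 683 CPM (6 of 7 higher). Keratocyte markers had 1446 CPM in NC-Foxc2-/- and 1736 CPM in control TM-3 cells, yet 3 of 5 were higher in the NC-Foxc2-/- library. Most of that sum was Lum, with 1133 CPM in NC-Foxc2-/- and 1471 CPM in control cells, while Kera had 102 and 29.9 CPM. Epithelial markers had 75.7 and 142 CPM (1 of 10 higher), and erythrocyte markers 2340 and 6906 CPM (0 of 6 higher). The part of these markers in the Ebf1 ratio was not tested. Without the cells marked as doublets the Ebf1 ratio in TM-3 was 5.60.

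**Figure D3:**
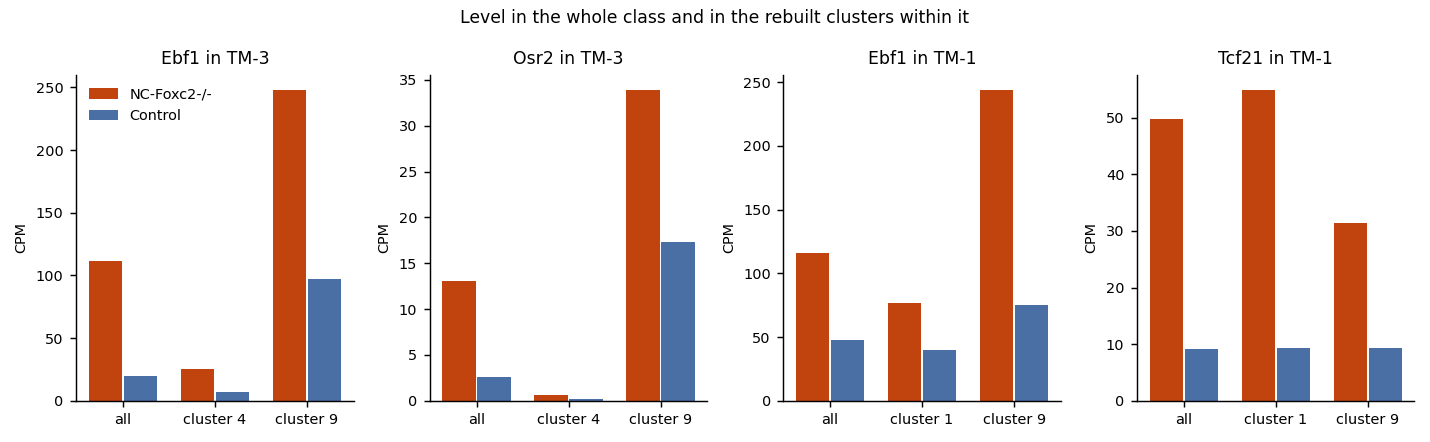
CPM of Ebf1 and Osr2 in TM-3 and of Ebf1 and Tcf21 in TM-1, in the whole class and in the rebuilt clusters with at least 20 cells in each library, in NC-Foxc2-/- cells (orange, left bar) and control cells (blue, right bar). Ebf1 was higher in the NC-Foxc2-/- library in each part, and in TM-3 cluster 9 held most of the level of both genes.

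Tcf21 was called in both beam classes. In TM-2 it had 126 CPM in NC-Foxc2-/- cells (147 UMIs in 44 of 257 cells) and 28.9 CPM in control cells (28 UMIs in 13 of 190 cells), a ratio of 4.37 (2.90 to 6.80). In TM-1 it had 49.8 CPM in NC-Foxc2-/- cells (142 UMIs in 53 of 499 cells) and 9.18 CPM in control cells (34 UMIs in 20 of 609 cells), a ratio of 5.42 (3.71 to 8.13). Most of its TM-1 UMIs came from cluster 1, led by Col10a1 and Edn3, with 127 of 142 in NC-Foxc2-/- mice and 32 of 34 in control mice. Within cluster 1, which held 77.4% of NC-Foxc2-/- and 92.0% of control TM-1 cells, the Tcf21 ratio was 5.89 (3.97 to 8.97), and within the same cluster in TM-2 it was 4.36. Pericyte-like cells had 5.37 CPM of Tcf21 in NC-Foxc2-/- mice and 6.18 CPM in control mice, a ratio of 0.868 with a wide interval (0.352 to 2.21).

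Osr2 went in opposite directions in 2 classes. In fibroblasts it had 112 CPM in NC-Foxc2-/- cells (671 UMIs) and 217 CPM in control cells (722 UMIs), a ratio of 0.517 (0.465 to 0.576), short of the limit of 0.5. In TM-3 it had 13.02 CPM in NC-Foxc2-/- cells (97 UMIs in 57 cells) and 2.56 CPM in control cells (16 UMIs in 12 cells), a ratio of 5.09 (2.98 to 9.26). Most of its TM-3 UMIs came from cluster 9, 89 of 97 in NC-Foxc2-/- mice and 15 of 16 in control mice. There it had 33.9 CPM in NC-Foxc2-/- cells and 17.3 CPM in control cells, a ratio of 1.96, and weighted to the control mix of clusters the TM-3 ratio was 2.05. As a mean over the CPM of single cells it was 1.88, below the limit of 2, and with the members left out of the clustering genes it was 9.02.

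Osr1, its relative, was the member called in fibroblasts. There Osr1 had 35.5 CPM in NC-Foxc2-/- cells (212 UMIs) and 16.0 CPM in control cells (53 UMIs), a ratio of 2.23 (1.64 to 3.07). In TM-1 and TM-2 it differed little, with 24.2 and 29.2 CPM in NC-Foxc2-/- cells and 20.3 and 25.8 CPM in control cells, ratios of 1.19 and 1.13 whose intervals include 1. The 5 beam markers summed to 627 CPM in NC-Foxc2-/- and 338 CPM in control fibroblasts (4 of 5 higher), and the 2 uveal markers to 37.7 and 243 CPM. Their part in the Osr1 ratio was not tested.

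Twist1 and Twist2 also differed in fibroblasts. Twist1 had 216 CPM in NC-Foxc2-/- fibroblasts and 374 CPM in control fibroblasts, a ratio of 0.578 (0.535 to 0.626). Twist2 had 45.1 CPM in NC-Foxc2-/- fibroblasts and 75.3 CPM in control fibroblasts, a ratio of 0.599 (0.502 to 0.715). Both bHLH genes were thus lower in the NC-Foxc2-/- library without reaching the limit of 0.5. Ebf2 had 41.9 CPM in NC-Foxc2-/- fibroblasts and 26.5 CPM in control fibroblasts (ratio 1.58, 1.24 to 2.04), while Ebf3 (0.891) and Prrx1 (0.938) had intervals that include 1. The 5 fibroblast markers above summed to 0.645 of the control level in NC-Foxc2-/- fibroblasts, with 1 of 5 higher, and their part in these ratios was not tested.

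In keratocyte-like cells, Twist1 and Prrx1 were close to level. Twist1 had 287 CPM in NC-Foxc2-/- cells and 289.8 CPM in control cells, a ratio of 0.989 (0.960 to 1.02). In the same cells Prrx1 had 299.9 CPM in NC-Foxc2-/- and 296 CPM in control cells, a ratio of 1.01 (0.986 to 1.04), and Twist2 a ratio of 1.07. Ebf1 had 6.39 CPM in NC-Foxc2-/- and 8.24 CPM in control keratocyte-like cells (ratio 0.776), so that the class with the most UMIs had no call. Over the 4 meshwork classes the ratios of Twist1 ran from 0.858 to 1.15 and those of Prrx1 from 0.910 to 1.12. Within the stroma, the ratio of Prrx1 farthest from 1 was in pericyte-like cells, with 224 CPM in NC-Foxc2-/- cells and 341 CPM in control cells, a ratio of 0.657 (0.583 to 0.741). The pericyte and smooth muscle markers of that class also differed between the libraries, and their part in this ratio was not tested. Twist2 was called in TM-3, with 11.7 CPM in NC-Foxc2-/- cells (87 UMIs) and 4.15 CPM in control cells (26 UMIs), a ratio of 2.81, but both levels lie within what macrophage-like cells had, and weighted to the control mix of clusters the ratio was 1.74.

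Of the 34 pairs with fewer than 50 UMIs, some are given here by their counts. The most UMIs among them, 34, were those of Ebf2 in TM-1, with 23 in NC-Foxc2-/- and 11 in control cells. Among pairs with fewer in NC-Foxc2-/- than in control cells were Osr2 in TM-2 (1 and 7 UMIs), Osr1 in the uveal meshwork (3 and 12) and Osr1 in smooth muscle-like cells (1 and 8). In pericyte-like cells Ebf3 had 25 UMIs in NC-Foxc2-/- mice and 4 in control mice, Twist2 had 27 and 4, and Osr2 had 25 and 2. These 3 genes were also counted in fibroblasts, whose markers summed to 256 CPM in NC-Foxc2-/- and 106 CPM in control pericyte-like cells (4 of 5 higher). Juxtacanalicular markers had 125 and 20.4 CPM there (5 of 5 higher), and keratocyte markers 226 and 155 CPM (3 of 5 higher). Other lists were lower, among them epithelial markers with 31.4 and 195 CPM (0 of 10 higher) and endothelial markers with 80.9 and 280 CPM (3 of 7 higher). The part of these markers in the 3 counts was not tested.

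Shares of cells followed the levels. In TM-3, 29.2% of NC-Foxc2-/- cells had an Ebf1 UMI (334 of 1142, median depth 6119 UMIs), against 8.57% of control cells (73 of 852, median depth 6988 UMIs). Macrophage-like cells, at median depths of 5740 and 4270 UMIs, had 4.70% and 2.10%. With each cell thinned to 1000 UMIs the TM-3 shares were 10.0% in NC-Foxc2-/- and 2.14% in control cells, and the macrophage-like shares were 1.30% (538 cells) and 0.754% (398 cells). Over the whole class, Ebf1 in TM-3 was above the macrophage-like share in both libraries. Cluster 4, with 79.3% of control TM-3 cells, had 6.65 CPM in control cells, below the 7.79 CPM of control macrophage-like cells.

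For Tcf21 in TM-2 the share was 17.1% of NC-Foxc2-/- cells and 6.84% of control cells, and after thinning to 1000 UMIs 8.95% and 4.23%. Its shares in macrophage-like cells were 0.324% in the NC-Foxc2-/- library and 0 of 523 cells in the control library. Osr2 was found in 34.8% of NC-Foxc2-/- fibroblasts and 61.4% of control fibroblasts, whose median depths were 5836 and 7495 UMIs. After thinning, which left out 10 NC-Foxc2-/- and 2 control fibroblasts, it was found in 10.3% and 21.6%. In the uveal meshwork, Ebf1 was found in 7.60% of NC-Foxc2-/- cells and 2.54% of control cells, and after thinning in 2.20% and 0.195%, so that the control share was at or below that of macrophage-like cells.

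The lower levels in fibroblasts and pericyte-like cells were also seen in the shares. Twist1 was found in 52.6% of NC-Foxc2-/- and 78.3% of control fibroblasts, and after thinning to 1000 UMIs in 16.9% and 28.8%, against 2.79% and 3.52% of macrophage-like cells. Prrx1 was found in 48.9% of NC-Foxc2-/- and 62.2% of control pericyte-like cells, and after thinning in 21.1% and 28.4%. Osr1 went the other way, with 13.3% of NC-Foxc2-/- and 8.55% of control fibroblasts, and after thinning 3.05% and 0.696%.

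**Figure D4:**
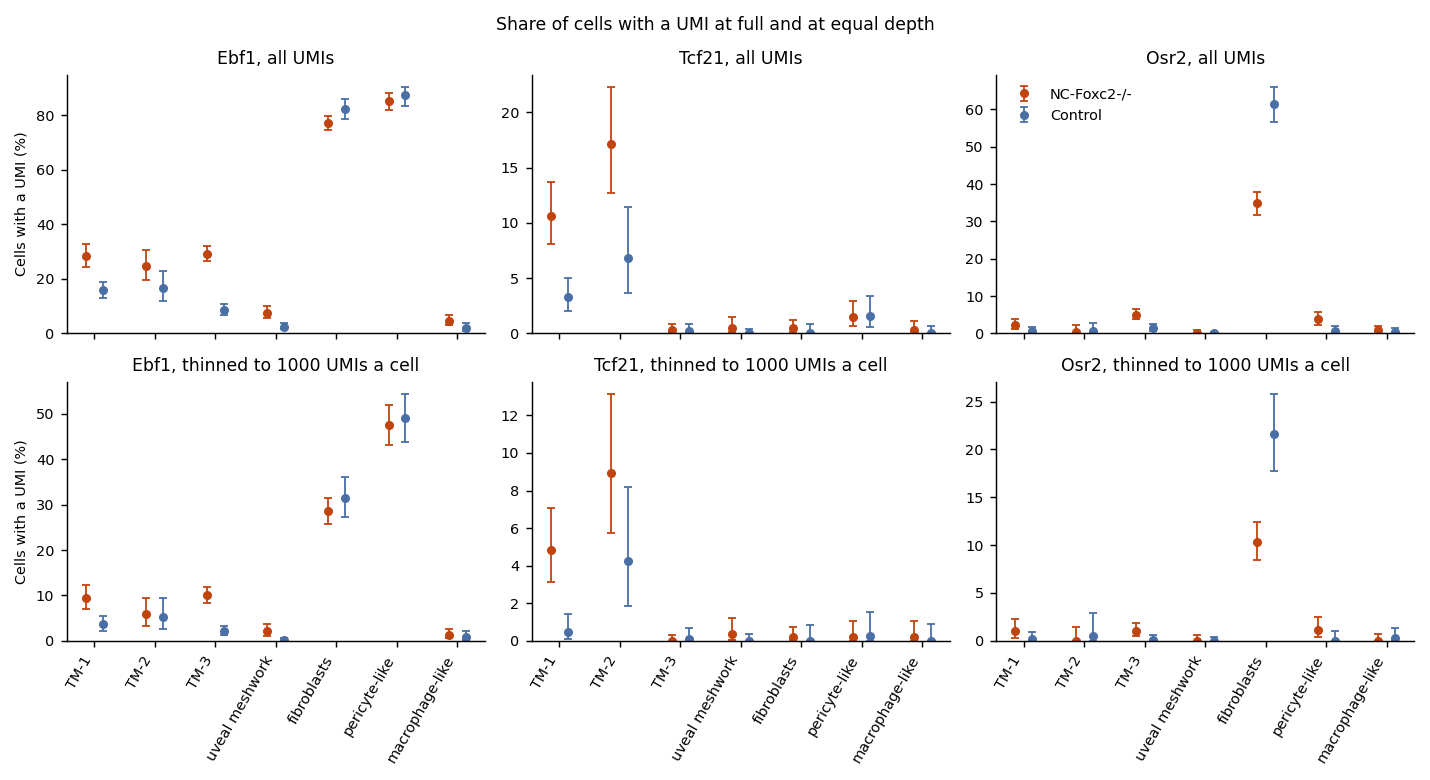
Share of cells with at least 1 UMI of Ebf1, Tcf21 or Osr2, with all UMIs (top) and with each cell thinned to 1000 UMIs (bottom), in NC-Foxc2-/- cells (orange) and control cells (blue), with exact binomial 95% intervals. Macrophage-like cells are shown as background. Ebf1 was found in more NC-Foxc2-/- than control TM-3 cells at both depths (29.2% and 8.57% with all UMIs, 10.0% and 2.14% thinned).

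Within a class the members did not all fall in the same cells. Among NC-Foxc2-/- TM-3 cells thinned to 3000 UMIs, Osr2 was found in 8.29% of 217 cells with Ebf1 (4.99 to 12.8%) and in 2.10% of 809 cells without it (1.23 to 3.34%). Twist1 was found in 34.6% of the cells with Ebf1 and in 50.7% of those without it. Both clusters of the class are pooled here. Among NC-Foxc2-/- TM-3 cells, cluster 9 held 651 of 828 Ebf1 UMIs and 89 of 97 Osr2 UMIs. Twist1 had 238 CPM in cluster 9 and 342 CPM in cluster 4. The part of the clusters in these shares was not tested. In control TM-3, only 36 thinned cells had Ebf1, and Twist1 was found in 58.3% of them and in 52.8% of the others. In NC-Foxc2-/- TM-1, Osr1 was found in 21.6% of 37 cells with Tcf21 (9.83 to 38.2%) and in 5.97% of 419 cells without it. In control TM-1, Tcf21 was found in 0 of 34 cells with Osr1 and in 1.97% of 559 cells without it, and in NC-Foxc2-/- TM-2, Osr1 was found in 6.90% of 29 cells with Tcf21 and in 3.68% of 190 cells without it, with overlapping intervals. In NC-Foxc2-/- fibroblasts, Osr1 was found in 8.90% of 191 cells with Osr2 and in 8.66% of 670 cells without it, a difference within the counting intervals.

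Over 42 sums of a class in a library with at least 100000 UMIs, the genes other than members whose log2(CPM + 1) ran most like each member were listed. These sums share libraries and differ in depth, and the coefficients are a description. For Ebf1 they were Thy1 (r = 0.89), Irak3 (0.83) and Kcnj8 (0.82), and for Ebf2 they were Pi15 (0.86), Tbx15 (0.81) and Il6 (0.80). Tcf21 ran most like Col10a1 (0.79), a collagen gene that led the beam cluster 1, followed by Lamc3 and Ggt5 (both 0.76). Twist1 ran most like Loxl1 (0.96), a crosslinking enzyme of elastic fibers, P3h3 and Bgn (both 0.95). Twist2 ran most like Smoc2, Glt8d2 and Col1a1 (0.93, 0.93 and 0.92), and Prrx1 like Ddr2, a collagen receptor (0.95), Sdc2 (0.94) and Cped1 (0.93).

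For Osr1 the 3 genes were Tspan11 (0.85), Hhip (0.84) and Il33 (0.83), and for Ebf3 they were Tcf15, Gata2 and Abcc9 (0.78, 0.77 and 0.77). Osr2 ran most like Ces1d, Ces2g and Duoxa1 (0.78, 0.78 and 0.76), over sums that include epithelial-like cells. Among the members themselves Twist1 and Prrx1 were the most alike (0.96), followed by Ebf1 and Ebf2 (0.75) and by Tcf21 and Osr1 (0.71).

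Other transcription factors of mesenchyme, 61 in 7 lists, were counted by the same rule. In TM-3, 6 of the 50 with at least 50 UMIs were higher in NC-Foxc2-/- cells and 1 was lower, against 3.64% and 2.29% of all genes. Among those higher were Shox2 (8.46 CPM in NC-Foxc2-/- and 0.959 CPM in control cells), Six2 (9.53 and 2.24), Tbx15 (6.44 and 0.320), Tbx3 (32.6 and 11.5) and Snai1 (35.0 and 16.6). Hey1, a target of Notch signaling, was lower, with 45.9 CPM in NC-Foxc2-/- and 98.4 CPM in control cells. The E proteins Tcf3, Tcf4 and Tcf12, partners of the bHLH members, gave 0 of 3 calls in TM-3, as did the EBF relative and partners Ebf4, Zfp423 and Zfp521. Elsewhere the counts of higher and lower were 5 and 2 of 48 in TM-1, 1 and 1 of 32 in TM-2, 3 and 1 of 48 in the uveal meshwork, 12 and 1 of 49 in fibroblasts, 0 and 0 of 43 in keratocyte-like cells, 7 and 4 of 36 in pericyte-like cells and 1 and 0 of 34 in smooth muscle-like cells. All genes gave 4.84% higher and 6.09% lower in fibroblasts, 5.94% and 3.72% in pericyte-like cells, and at most 2.77% either way in TM-1, TM-2, the uveal meshwork, keratocyte-like and smooth muscle-like cells.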

How the data were processed

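The authors mapped reads of each library to mm10 with Cell Ranger 4.0.0, per the labels, and deposited raw UMI counts per gene and barcode, with a second table of raw counts over 19217 genes. The annotation release and the use of strand in counting are not given in the sources used here. The study's limit of 8% mitochondrial UMIs per cell was applied. Cells were given the study's cluster names by matching their normalized values, recomputed over 14039 genes, to its source data within 0.55 of the last digit, which named 99.8% to 100% of them. Within 0.5 of the last digit, 74.2% of the fibroblasts and 82.4% to 84.7% of the cells in each meshwork class were named. Other classes were rebuilt with scanpy 1.11.5 (2322 highly variable genes, 4 members among them, 15 components, 25 neighbors, leidenalg 0.10.2 at resolution 0.8) and called "X-like" from marker lists. Scrublet marked 4.68% of NC-Foxc2-/- and 3.92% of control cells as doublets, which were kept.

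UMIs were summed per class and library and divided by the class total (CPM). Intervals are exact 95% Poisson, conditional binomial and Clopper-Pearson intervals. They cover counting error only, and since UMIs of 1 gene come from few cells they are too narrow. Depth sets their width, with class totals in the stroma between 968292 and 38793374 UMIs. No p-value is given. The ratio and its interval were run on simulated data drawn with the counting error that the interval assumes. That run checks the calculation only, since it holds neither clumping of UMIs in cells nor differences between libraries of 1 genotype. The call limits were a ratio of 2 or 0.5 and a sum of 50 UMIs. The members, marker and factor lists were chosen with earlier results of these data known. All 9 members are described in 8 stromal classes, the 3 most alike genes of each are named, and of the other factors those called in TM-3, except 1 that is not reported here. Alternatives covered the mitochondrial limit, doublets, scaling, gene set, depth, averaging, cell naming, clustering and the UMI minimum. Promoters come from RefSeq tables of GRCm38.p6, and Python 3.11.15 with NumPy 2.4.6, SciPy 1.17.1 and pandas 2.3.3 was used.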

Additional observations from a re-analysis of the deposited data

Results flagged for a closer look

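Osr2 moved in opposite directions in 2 stromal classes: its CPM ratio of NC-Foxc2-/- over control was 5.09 in TM-3 and 0.517 in fibroblasts. It stands here because both 95% counting intervals lie beyond a factor of 1.5 from 1. Most of the TM-3 UMIs came from the cluster led by Cilp2 and Chad, where the ratio was 1.96 (1.13 to 3.65), and weighted to the control mix of clusters the TM-3 ratio was 2.05, so the size of the TM-3 value depends on the make-up of the class. The difference between the classes was not tested, since each genotype is 1 library.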

How the results depend on the processing

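Over all alternatives, 347 values of the 38 ratios stayed within the counting interval of the reported one and 35 moved outside it, and no called ratio changed direction. The count of 9 higher calls became 2 with cells thinned to 1000 UMIs, where few pairs keep 50 UMIs, 17 with a minimum of 20 UMIs and 32 with no filter on low counts. The count of 0 lower calls became 2 after thinning (Osr2 and Twist2 in fibroblasts), 1 with cells matched within 0.5 of the last digit (Osr2 in fibroblasts, 0.488) and 3 with no filter on low counts. The class with the highest level changed for some members, given as that class over the highest of the others. For Ebf3 the ratio was 0.779 in the NC-Foxc2-/- library alone. In the control library alone it was 0.948 for Twist1, 0.757 for Twist2 and 0.618 for Osr1, and after thinning 0.946 for Twist1 and 0.868 for Osr1. The cause was not tested. Thinning, which leaves few UMIs, moved called ratios to 12.1 for Ebf1 in the uveal meshwork, 12.2 for Tcf21 in TM-1, 4.83 for Osr1 in fibroblasts and 10.5 for Osr2 in TM-3. No paired analysis was possible because each group holds 1 library, and for the same reason no replicate could be left out.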

Other observations

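Members were also counted outside the stroma. Ebf1, which B cells need to form, had 373 CPM in NC-Foxc2-/- and 374 CPM in control cells of the class led by markers of NK, T and B cells. Within it, cells with a UMI of Cd79a, part of the B cell receptor, had 1260 CPM of Ebf1 in NC-Foxc2-/- mice (78 cells) and 1486 CPM in control mice (46 cells), and 93.6% and 97.8% of them had an Ebf1 UMI. Cells of the class without Cd79a had 26.6 and 12.9 CPM. Endothelial-like cells had 245 CPM of Ebf1 in NC-Foxc2-/- mice and 173 CPM in control mice, and 16.6 and 4.73 CPM of Ebf3.

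Osr2 had most of its control UMIs outside the stroma, with 63.1% of its UMIs in stromal classes in the NC-Foxc2-/- library and 15.1% in the control library. In epithelial-like cells it had 9.62 CPM in NC-Foxc2-/- mice (65 UMIs) and 66.0 CPM in control mice (2198 UMIs). Within them the cluster led by Krt6b, Psca and Krt13 had 39.3 CPM in 32 NC-Foxc2-/- cells and 129 CPM in 518 control cells. An unnamed cluster led by Wfdc18, Lgals7 and Krt17, with 30.6% doublets, had 94.5 CPM in 174 NC-Foxc2-/- cells and 183 CPM in 549 control cells. These clusters made up different shares of the libraries, 1.60% of NC-Foxc2-/- and 5.10% of control cells for the unnamed one, and Osr1 had at most 10 UMIs in any of these clusters.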
